A study of Homo sapiens with 9 samples.

Results

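The genes described here are 56 genes that license, open and copy DNA at replication origins and forks. They were chosen by gene symbol, from the origin recognition complex (ORC) to the fork protection genes, and the FPKM values (fragment numbers scaled by transcript length and library size) of all transcripts of a gene were summed. All 56 were present among the 60966 genes of the tables, and all 56 were among the 14985 genes tested, which had at least 1 FPKM in at least 3 samples. The lowest value of any of the 56 in any sample was 1.32 FPKM, for MCM8 and for GINS1, both with Si-FIBP#1.

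In late mitosis and G1, ORC marks origins and, with CDC6 and CDT1, loads the MCM2-7 helicase onto DNA, which is called licensing. In S phase, the kinase CDC7 with its subunit DBF4, together with TICRR, MCM10 and other factors, turns the loaded helicase into the active form that carries CDC45 and the GINS complex. DNA polymerase alpha-primase then starts each strand, polymerases delta and epsilon extend it on the PCNA clamp that the RFC complex loads, and nucleases and a ligase join the Okazaki fragments. Many of these genes are textbook targets of the E2F transcription factors and are transcribed most strongly around the G1/S transition.

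Poly(A) RNA was sequenced from H1299, an established human lung cancer cell line. The cells were transfected with Scramble (a control siRNA), with Si-FIBP#1 or with Si-FIBP#2, and each of the 3 groups had 3 samples. FIBP, the gene that both siRNAs target, was at 88.4, 79.5 and 77.7 FPKM in Scramble cells, compared with 7.49, 7.77 and 4.3 after Si-FIBP#1 transfection and 7.13, 5.92 and 8.21 after Si-FIBP#2. The log2 fold change of FIBP was -3.50 ± 0.18 (SE) for the Si-FIBP#1 samples and -3.36 ± 0.18 for those of Si-FIBP#2, on the log2(FPKM + 1) scale used throughout (adjusted p = 9.40e-07 and 1.42e-06, limma with Benjamini-Hochberg adjustment over all genes tested). In every siRNA-treated sample FIBP was far below every Scramble sample. The study's methods say in general that experiments were repeated independently, but the labels do not say whether the 3 sequenced samples of a group were separate cultures, so the p-values measure the spread between these samples, which may be technical. The siRNA groups share the Scramble samples as controls, and their values are therefore given side by side.

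The libraries summed to between 781058 and 818104 FPKM over all genes and had 13894 to 14715 genes at 1 FPKM or more. The tables hold no counts, so the depth behind each value is unknown here and the spread between samples gives its precision. KRT8, KRT18 and VIM, which H1299 cells are known to express, were present in all samples, but KRT18 fell with both siRNAs (log2 fold change -1.19 and -1.45) and so did VIM (-0.49 and -0.72) and KRT8 (-0.53 and -0.49). Of the 9 marker genes of blood cells, endothelium and fibroblasts, CD3E and LUM were listed at 0 in every sample and none exceeded 1.59 FPKM, the value of COL1A1 in a sample with Si-FIBP#2. COL1A1, a collagen of fibroblasts, was nevertheless higher in every siRNA-treated sample than in any Scramble sample, at 0.03 to 0.14 FPKM in Scramble cells, between 0.35 and 1.15 for Si-FIBP#1 and between 0.7 and 1.59 for Si-FIBP#2. The sum of the 9 genes lay between 0.29 and 0.91 FPKM in Scramble, between 0.78 and 1.8 for Si-FIBP#1 and between 1.06 and 3.54 for Si-FIBP#2, and their part in the results was not tested.

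Replication genes were lower after transfection with either siRNA. With Si-FIBP#1, 49 of the 56 genes fell, 1 rose and 6 did not pass the test at an adjusted p below 0.05, against a background of 19.9% of all genes tested that were lower and 27.8% that were higher. With Si-FIBP#2, 47 fell, 1 rose and 8 did not pass, against 17.7% lower and 31.1% higher among all genes. A fall of more than 2-fold that passed the test was found in 26 genes for Si-FIBP#1 and in 21 for Si-FIBP#2, where the background was 3.11% and 2.13%. The added 1 FPKM shrinks the changes of low genes. With 0.1 in its place these falls numbered 30 and 25, beside 649 and 458 of all 14985 genes tested. On the log2(FPKM + 1) scale, no gene of the 56 rose by more than 2-fold. Among all 14985 genes tested, 382 with Si-FIBP#1 and 438 with Si-FIBP#2 did so and passed the test. The median log2 fold change over the 56 genes was -0.94 for Si-FIBP#1 and -0.91 for Si-FIBP#2, and over all genes tested it was 0.073 and 0.11. In bulk RNA, a lower share of cells that express a gene and less of its RNA in each cell cannot be told apart.

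All 6 siRNA-treated samples were below all 3 Scramble samples for 47 of the 56 genes, against 16.5% of all genes tested. POLD4 alone was above all Scramble samples in every siRNA-treated sample. The share of all genes tested for which this held was not counted, so this number has no background beside it. The balance of the whole transcriptome depended on the scaling. After each library had been scaled so that its median ratio to the mean library was the same, lower calls made up 23.8% of the genes tested for Si-FIBP#1 and 24.1% for Si-FIBP#2, while higher calls made up 22.7% and 22.6%. Their median log2 fold change was then 0.0080 and 0.011, where it had been 0.073 and 0.11. The replication genes were lower under both scalings, with 50 of the 56 called lower with each siRNA after the rescaling.

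**Figure D1:**
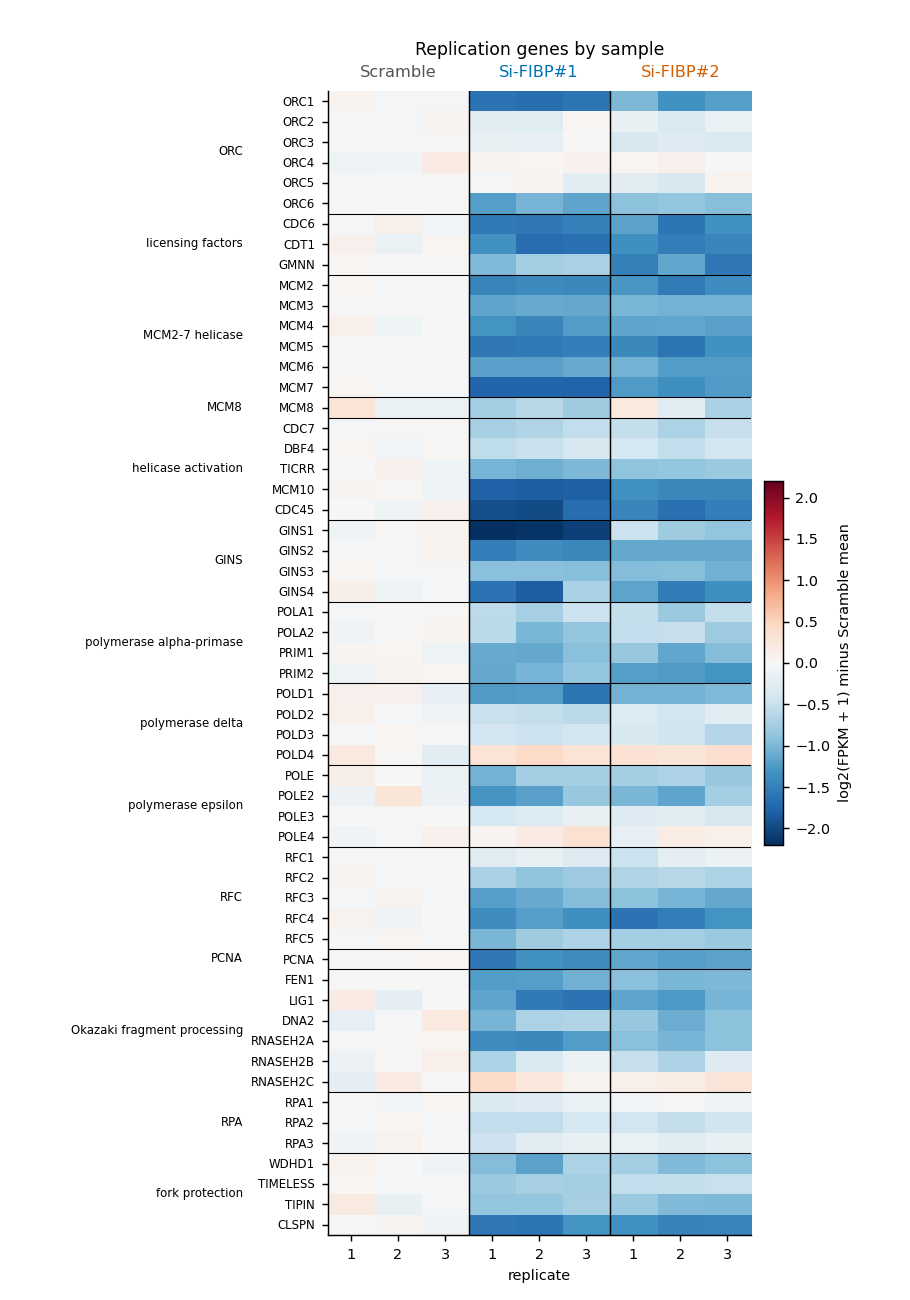
Each row is a replication gene and each column a sample. The colour is log2(FPKM + 1) minus the mean of the 3 Scramble samples, with blue for lower and red for higher. The 6 siRNA-treated columns are blue for most rows, deepest for GINS1 with Si-FIBP#1, and pale for ORC2 to ORC5, POLE4 and RNASEH2C.

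To place the response beside regulatory sequence, promoters from 250 bases before to 50 bases after the transcription start were taken from the RefSeq table of GRCh38.p14, in which 49 of the 56 genes had an entry. Where a gene had several starts, the start nearest to the most abundant annotated transcript was used. The promoters of CDC45, MCM10 and MCM7, with the largest mean falls over both siRNAs, and of POLD4 and RNASEH2C, with the largest mean changes in the upward direction, are shown 5′ to 3′ with capitals for matches to E2F letters (TTTGGCGC, TTTCCCGC, TTTCGCGC or TTTGCCGC) and to CCAAT, the box bound by NF-Y, on either strand. The CDC45 promoter is chr22:19479576-19479875 on the plus strand, that of MCM10 chr10:13161308-13161607 on the plus strand, that of MCM7 chr7:100101348-100101647 on the minus strand, that of POLD4 chr11:67353497-67353796 on the minus strand and that of RNASEH2C chr11:65720749-65721048 on the minus strand.
CDC45: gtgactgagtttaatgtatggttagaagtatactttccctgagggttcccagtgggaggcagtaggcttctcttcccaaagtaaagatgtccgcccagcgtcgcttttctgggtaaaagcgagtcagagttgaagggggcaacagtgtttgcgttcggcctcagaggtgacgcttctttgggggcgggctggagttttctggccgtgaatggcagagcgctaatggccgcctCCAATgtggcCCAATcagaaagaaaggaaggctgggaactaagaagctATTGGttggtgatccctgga
MCM10: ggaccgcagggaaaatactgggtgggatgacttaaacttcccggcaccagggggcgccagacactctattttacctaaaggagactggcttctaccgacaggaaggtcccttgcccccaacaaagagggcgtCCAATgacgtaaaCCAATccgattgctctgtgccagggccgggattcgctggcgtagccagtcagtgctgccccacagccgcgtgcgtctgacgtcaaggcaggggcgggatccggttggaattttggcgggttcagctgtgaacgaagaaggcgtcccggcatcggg
MCM7: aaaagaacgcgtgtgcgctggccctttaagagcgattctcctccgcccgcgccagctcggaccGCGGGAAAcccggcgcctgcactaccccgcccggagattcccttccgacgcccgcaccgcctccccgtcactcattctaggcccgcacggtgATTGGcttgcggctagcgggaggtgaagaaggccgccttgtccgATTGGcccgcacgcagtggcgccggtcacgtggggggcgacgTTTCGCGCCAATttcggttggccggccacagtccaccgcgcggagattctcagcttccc
POLD4: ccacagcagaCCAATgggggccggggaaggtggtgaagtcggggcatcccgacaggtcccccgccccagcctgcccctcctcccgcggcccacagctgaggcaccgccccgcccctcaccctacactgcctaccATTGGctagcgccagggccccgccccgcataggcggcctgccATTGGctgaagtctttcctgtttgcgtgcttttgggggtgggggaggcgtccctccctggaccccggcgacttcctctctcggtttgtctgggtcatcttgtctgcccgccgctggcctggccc
RNASEH2C: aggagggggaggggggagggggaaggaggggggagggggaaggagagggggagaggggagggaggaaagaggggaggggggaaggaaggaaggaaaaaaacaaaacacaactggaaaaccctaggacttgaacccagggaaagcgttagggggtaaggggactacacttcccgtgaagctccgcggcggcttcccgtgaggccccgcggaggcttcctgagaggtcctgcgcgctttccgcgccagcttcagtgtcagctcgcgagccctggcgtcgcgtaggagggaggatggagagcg
CDC45 and MCM10 had CCAAT matches and none of the E2F letters listed, MCM7 had both, POLD4 had CCAAT only and RNASEH2C had neither. Other forms of the E2F site, which differ from these letters by a base, were not searched for. In MCM7, the E2F match nearest to the start overlaps a CCAAT match by a single base. The MCM7 start of the table lies 543 bases from that of its most abundant transcript in GENCODE release 29. This distance was 576 bases for CDT1, 279 for MCM8, 274 for FEN1 and 259 for LIG1, and at most 213 for the other genes with an entry. For such genes the window may not be the promoter of the transcript measured.

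E2F letters occurred in 20 of the 49 promoters (40.8%), in 5.1% of the 14809 promoters of the genes tested and in 3.3% of all 35116 promoters of the table. Of the 19 genes that fell by more than 2-fold with both siRNAs, 16 had a promoter entry, which MCM4, MCM5 and GINS4 lacked. Of these 16 promoters, 10 held E2F letters (62.5%). The share was 2 of 9 (22.2%) where the fall passed 2-fold with only 1 siRNA and 8 of 24 (33.3%) for the other genes. CCAAT was found in 57.1% of the 49 promoters and in 35.0% of those of the genes tested. The letters of the cell cycle homology region (TTTGAA or TTCGAA), an element of late cell cycle genes, were in 6.1% and 11.7%. These are matches of letters in a fixed window, some genes of the larger sets have several starts, and no test was made. The classes rest on the 2-fold calls of the main fit, and their shares under the alternative settings were not computed.

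Among the 6 subunits of ORC, ORC1 and ORC6 fell with both siRNAs and the core subunits changed little. ORC1, the ATPase subunit whose level rises and falls with the cell cycle, was at 15.8, 14.8 and 14.4 FPKM in Scramble cells, compared with 4.17, 4.06 and 4.26 after Si-FIBP#1 transfection and 7.07, 5.31 and 5.92 after Si-FIBP#2. The fall was -1.63 ± 0.096 and -1.18 ± 0.096 on the log2 scale (SE, adjusted p = 1.74e-06 and 1.28e-05, limma). ORC6, the smallest subunit, was at 32.1, 32.3 and 32.9 FPKM in Scramble cells, compared with 13.5, 15.4 and 13.9 after Si-FIBP#1 transfection and 16.9, 17.4 and 16.5 after Si-FIBP#2. Neither gene had a sample of an siRNA group that reached the Scramble range. ORC4 was at 20.4, 20.97 and 25.3 FPKM in Scramble cells, compared with 22.97, 22.9 and 23.6 after Si-FIBP#1 transfection and 22.8, 23.6 and 22.2 after Si-FIBP#2, and all 3 groups overlapped. Its log2 fold changes of 0.064 and 0.046 did not pass the test, but 44.1% of its FPKM came from an assembled transcript, and from annotated transcripts alone it rose with Si-FIBP#1 (0.51, adjusted p = 0.00463, limma). ORC5 (-0.068 and -0.17) and ORC2 (-0.15 and -0.22) did not pass the test with either siRNA, and ORC3 fell with Si-FIBP#2 (-0.32) and was at -0.12 with Si-FIBP#1, which did not pass, a difference between the siRNAs that did not pass the test itself (adjusted p = 0.0518, limma). After median ratio scaling, ORC3 passed with Si-FIBP#1 (-0.19, adjusted p = 0.0260, limma) and ORC2 with Si-FIBP#2 (-0.33, adjusted p = 0.0205, limma). Without single libraries more of these passed (limma), namely ORC2 with both siRNAs (-0.25 and -0.22, adjusted p = 0.0412 and 0.0397) and ORC3 with Si-FIBP#1 (-0.18, adjusted p = 0.0366) without Si-FIBP#1 replicate 3, and ORC5 with Si-FIBP#2 (-0.29, adjusted p = 0.0381) without Si-FIBP#2 replicate 3. The summed FPKM of the 6 ORC genes, which is weighted to the most abundant RNAs, was 76.0% of the Scramble mean for Si-FIBP#1 and 74.5% for Si-FIBP#2.

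The licensing factors CDC6 and CDT1 fell with both siRNAs, and geminin (GMNN), the inhibitor of CDT1, fell further with Si-FIBP#2 than with Si-FIBP#1. CDC6, the ATPase that joins ORC to load the helicase, was at 23.4, 25.9 and 22.9 FPKM in Scramble cells, compared with 7.48, 7.37 and 7.94 after Si-FIBP#1 transfection and 10.1, 7.29 and 8.89 after Si-FIBP#2. CDT1, which brings MCM2-7 to the origin, was at 45.6, 38.6 and 44.1 FPKM in Scramble cells, compared with 16.4, 12.7 and 12.9 after Si-FIBP#1 transfection and 16.1, 14.3 and 15.1 after Si-FIBP#2. GMNN, which binds CDT1 and blocks a further round of licensing, was at 87.1, 85.01 and 82.5 FPKM in Scramble cells, compared with 42.5, 50.4 and 51.2 after Si-FIBP#1 transfection and 29.5, 37.9 and 28.02 after Si-FIBP#2. All siRNA-treated samples lay below the Scramble samples for the 3 genes, and for GMNN the samples with Si-FIBP#2 also lay below those with Si-FIBP#1. The log2 fold changes were -1.54 and -1.37 for CDC6, -1.55 and -1.43 for CDT1 and -0.81 and -1.40 for GMNN (adjusted p from 3.60e-06 to 0.000259, limma). The ratio of CDT1 to GMNN in FPKM was 0.504 ± 0.0434 (SD, n = 3) for Scramble, 0.297 ± 0.0772 for Si-FIBP#1 and 0.488 ± 0.0962 for Si-FIBP#2. Its 3 values with Si-FIBP#1 (0.386, 0.253 and 0.252) were below every Scramble value, and the values with Si-FIBP#2 overlapped those of Scramble.

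**Figure D2:**
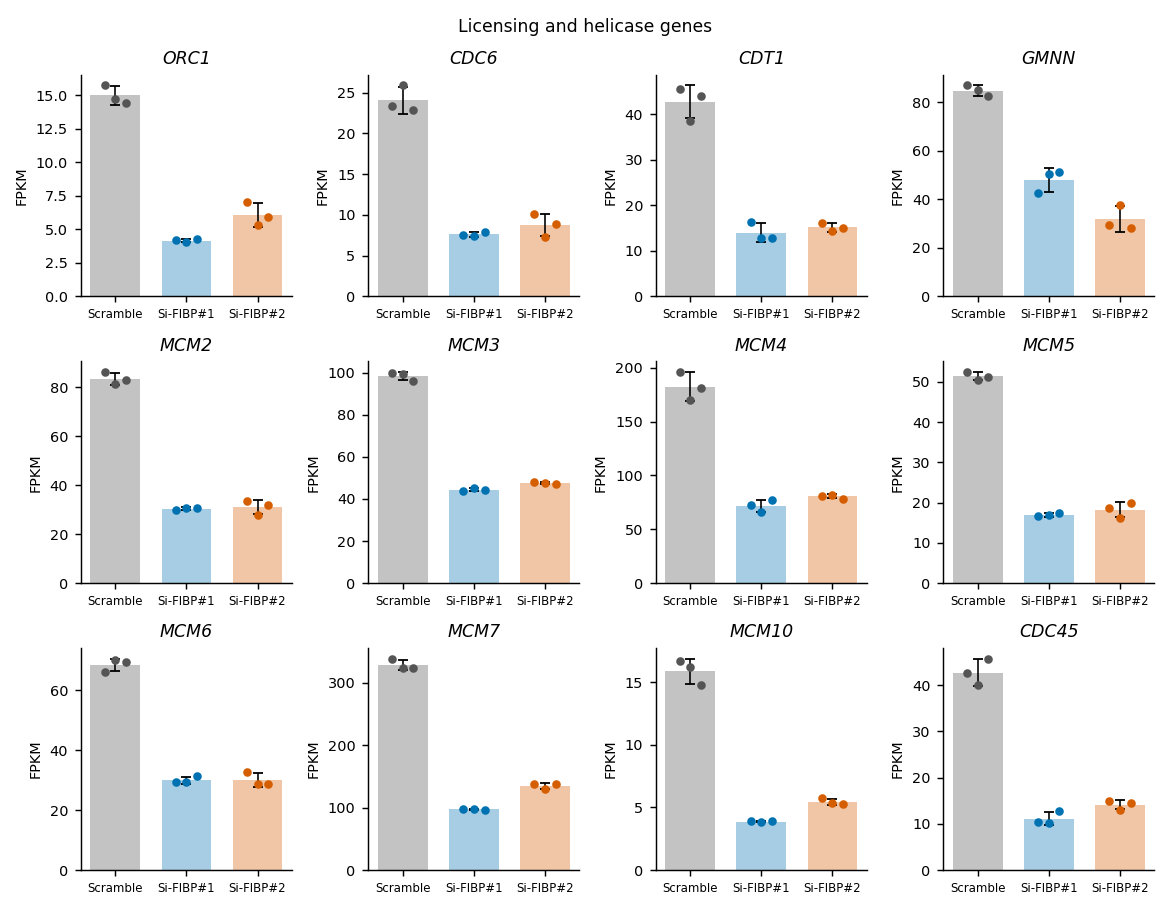
FPKM of 12 licensing and helicase genes in each sample (points), with the mean (bar) and SD (error bar, n = 3) of each group. Every siRNA-treated point is below every Scramble point in all 12 panels, and GMNN is the panel in which Si-FIBP#2 lies below Si-FIBP#1.

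All 6 subunits of the MCM2-7 helicase fell by more than 2-fold with both siRNAs. MCM7 was the most abundant in FPKM, at 338, 324 and 324 FPKM in Scramble cells, compared with 97.9, 97.3 and 95.96 after Si-FIBP#1 transfection and 137, 129 and 137 after Si-FIBP#2. MCM4 was at 196, 169.7 and 181 FPKM in Scramble cells, compared with 72.6, 66.1 and 77.3 after Si-FIBP#1 transfection and 81.1, 82.2 and 78.5 after Si-FIBP#2, and MCM3 was at 99.6, 99.3 and 96.2 FPKM in Scramble cells, compared with 43.7, 45.1 and 44.3 after Si-FIBP#1 transfection and 48.2, 47.3 and 47.1 after Si-FIBP#2. Groups did not overlap, and the spread within a group was small beside the gap to Scramble. MCM2 was at 86.3, 81.5 and 82.99 FPKM in Scramble cells, compared with 29.9, 30.9 and 30.6 after Si-FIBP#1 transfection and 33.6, 28.03 and 31.9 after Si-FIBP#2. MCM6 was at 66.2, 70.02 and 69.3 FPKM in Scramble cells, compared with 29.2, 29.4 and 31.3 after Si-FIBP#1 transfection and 32.6, 28.7 and 28.8 after Si-FIBP#2, and MCM5 was at 52.4, 50.4 and 51.3 FPKM in Scramble cells, compared with 16.6, 16.9 and 17.6 after Si-FIBP#1 transfection and 18.6, 16.1 and 19.9 after Si-FIBP#2. The largest fall of a subunit was that of MCM7 with Si-FIBP#1 (-1.75 ± 0.042, SE, adjusted p = 6.58e-08, limma), and the smallest that of MCM3 with Si-FIBP#2 (-1.03 ± 0.043, adjusted p = 5.92e-07, limma). Between these lay MCM2 (-1.43 and -1.40), MCM4 (-1.33 and -1.17), MCM5 (-1.54 and -1.45) and MCM6 (-1.17 and -1.17). Summed FPKM of the 6 genes were 813 ± 23.1 (SD, n = 3) for Scramble, 291 ± 5.70 for Si-FIBP#1 and 342 ± 10.0 for Si-FIBP#2, which is 35.8% and 42.1% of the Scramble mean. Exons of MCM2 share 22.7% of their bases with an annotated gene on the opposite strand, and those of MCM7 share 8.94% with AP4M1, also opposite. Whether the counting used strand is not given in the sources used here.

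MCM8, a related helicase that acts in recombination and is not part of MCM2-7, was the least abundant gene of the list. Its values were 3.93, 2.63 and 2.61 FPKM in Scramble cells, compared with 1.37, 1.64 and 1.32 after Si-FIBP#1 transfection and 3.68, 2.38 and 1.44 after Si-FIBP#2. The Si-FIBP#1 samples lay below Scramble and the Si-FIBP#2 samples overlapped it. The log2 fold change with Si-FIBP#1 was -0.72 ± 0.22 (SE, adjusted p = 0.0242, limma), and the call was lost without Scramble replicate 1 (-0.57, adjusted p = 0.0840), Si-FIBP#1 replicate 1 (-0.70, adjusted p = 0.0611) or Si-FIBP#1 replicate 3 (-0.68, adjusted p = 0.0667). With Si-FIBP#2 it was -0.25 and did not pass the test. That value was -0.48 without Si-FIBP#2 replicate 1, -0.013 without Si-FIBP#2 replicate 3 and -0.099 without Scramble replicate 1, and none of these passed the test. The siRNAs were not shown to differ for MCM8 (0.47 ± 0.22, adjusted p = 0.193, limma), and that difference was 0.24 without Si-FIBP#2 replicate 1 and 0.71 without Si-FIBP#2 replicate 3.

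Factors that activate the loaded helicase fell as well, the helicase cofactor CDC45 and MCM10 most and CDC7 and DBF4 least. CDC45 was at 42.5, 39.98 and 45.7 FPKM in Scramble cells, compared with 10.5, 10.1 and 12.7 after Si-FIBP#1 transfection and 15.1, 13.04 and 14.4 after Si-FIBP#2. MCM10, which is needed for the helicase to start unwinding, was at 16.7, 16.2 and 14.8 FPKM in Scramble cells, compared with 3.91, 3.81 and 3.88 after Si-FIBP#1 transfection and 5.73, 5.34 and 5.3 after Si-FIBP#2. Their log2 fold changes were -1.86 and -1.53 for CDC45 and -1.79 and -1.39 for MCM10, the largest mean falls of the 56 genes. TICRR, also known as treslin, which helps to bring CDC45 to origins, was at 8.77, 9.4 and 8.08 FPKM in Scramble cells, compared with 3.78, 3.6 and 3.93 after Si-FIBP#1 transfection and 4.28, 4.4 and 4.56 after Si-FIBP#2 (log2 fold change -1.03 and -0.85). Without Scramble replicate 2 its fall with Si-FIBP#1 was -0.98, and from annotated transcripts only it was -0.96, both under 2-fold. DBF4, the activating subunit of CDC7, was at 36.5, 33.9 and 35.9 FPKM in Scramble cells, compared with 23.8, 24.9 and 27.5 after Si-FIBP#1 transfection and 26.9, 24.1 and 26.7 after Si-FIBP#2. It fell by a smaller amount (-0.47 and -0.44), as did CDC7 itself (-0.65 and -0.58), and assembled transcripts carried 31.2% and 37.1% of the FPKM of DBF4 and CDC7. For all 5 genes the groups did not overlap with Scramble, and the adjusted p was between 4.38e-07 and 0.000769 (limma).

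The 4 GINS subunits, which join CDC45 on the active helicase, all fell, and GINS1 showed the largest gap between the siRNAs of all 56 genes. GINS1 was at 9.77, 10.8 and 11.1 FPKM in Scramble cells, compared with 1.32, 1.58 and 1.79 after Si-FIBP#1 transfection and 7.32, 5.68 and 5.34 after Si-FIBP#2. This was 14.8% of the Scramble mean for Si-FIBP#1 and 57.9% for Si-FIBP#2, and the 3 groups were fully separate. The direct comparison of Si-FIBP#2 with Si-FIBP#1 gave 1.47 ± 0.12 (SE, adjusted p = 0.000253, limma). GINS2 was at 20.1, 20.4 and 21.97 FPKM in Scramble cells, compared with 6.56, 7.48 and 7.17 after Si-FIBP#1 transfection and 9.0, 8.97 and 8.97 after Si-FIBP#2. GINS3 was at 13.5, 12.7 and 12.8 FPKM in Scramble cells, compared with 6.4, 6.36 and 6.29 after Si-FIBP#1 transfection and 6.21, 6.3 and 5.75 after Si-FIBP#2. GINS4 was at 20.6, 17.5 and 18.4 FPKM in Scramble cells, compared with 5.42, 4.64 and 11.1 after Si-FIBP#1 transfection and 7.83, 5.82 and 6.77 after Si-FIBP#2. A sample with Si-FIBP#1, at 11.1 FPKM, stood above the other 2 of its group for GINS4 and was still below Scramble. The log2 fold changes were -2.18 and -0.71 for GINS1, -1.44 and -1.13 for GINS2, -0.93 and -0.98 for GINS3 and -1.38 and -1.35 for GINS4, with the SE of GINS4 (0.24) above that of GINS1 (0.12). The ratio of GINS1 to GINS2 was 0.507 ± 0.0225 (SD, n = 3) for Scramble, 0.221 ± 0.0256 for Si-FIBP#1 and 0.681 ± 0.117 for Si-FIBP#2, so within the complex GINS1 was lower relative to GINS2 in every Si-FIBP#1 sample and higher in every Si-FIBP#2 sample. For GINS4, 21.2% of the exon bases lie opposite another annotated gene.

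**Figure D3:**
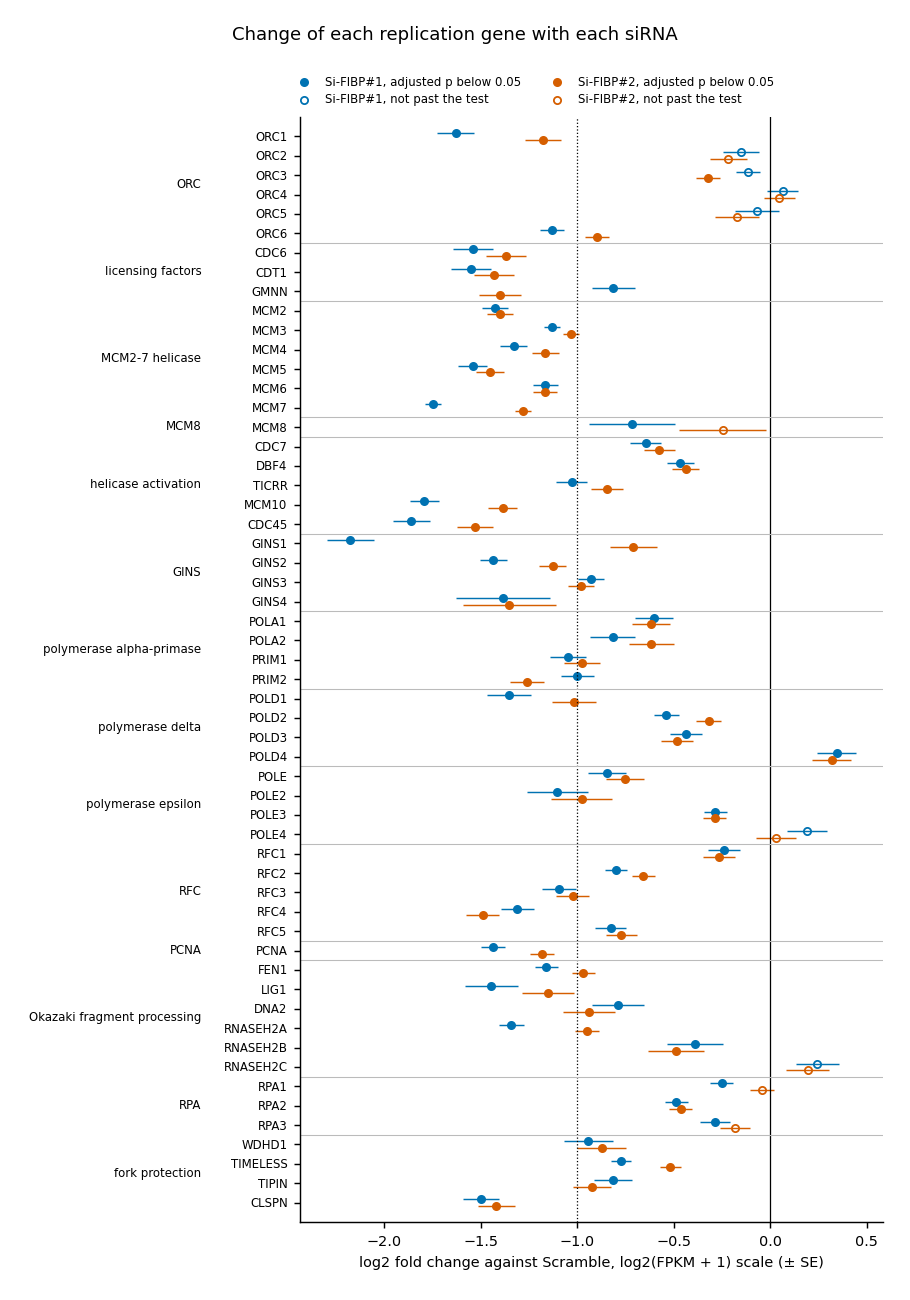
Points are the log2 fold change of each gene against Scramble, with bars for the SE, in blue for Si-FIBP#1 and orange for Si-FIBP#2. Filled points passed an adjusted p below 0.05, and the dotted line marks a 2-fold fall. Genes of MCM2-7 lie left of the line for both siRNAs, while ORC4, POLD4, POLE4 and RNASEH2C lie right of 0. ORC2, ORC3 and ORC5 lie between -0.32 and 0, and of their points only ORC3 with Si-FIBP#2 is filled.

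Polymerase alpha-primase, which lays down the RNA-DNA primers, fell in all 4 subunits. PRIM1, the catalytic primase subunit, was at 64.8, 63.7 and 57.1 FPKM in Scramble cells, compared with 28.2, 27.8 and 32.3 after Si-FIBP#1 transfection and 34.2, 27.4 and 31.6 after Si-FIBP#2. PRIM2, its partner, was at 21.7, 24.8 and 24.4 FPKM in Scramble cells, compared with 10.2, 11.1 and 12.6 after Si-FIBP#1 transfection and 9.56, 9.33 and 8.89 after Si-FIBP#2. POLA1, the polymerase subunit, was at 14.2, 14.6 and 14.7 FPKM in Scramble cells, compared with 9.34, 8.3 and 10.1 after Si-FIBP#1 transfection and 9.79, 7.81 and 9.78 after Si-FIBP#2. All samples with an siRNA were below Scramble. The log2 fold changes were -1.05 and -0.98 for PRIM1, -1.0 and -1.26 for PRIM2, -0.60 and -0.62 for POLA1 and -0.82 and -0.62 for POLA2, the accessory subunit, with adjusted p between 4.67e-06 and 0.00193 (limma). An assembled transcript carried 86.6% of the FPKM of PRIM1. From its annotated transcripts alone PRIM1 fell by 1.28 and 1.39 on the log2 scale, more than 2-fold with both siRNAs. POLA2 shares 35.1% of its exon bases with another gene on the same strand.

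Polymerases delta and epsilon, which copy the lagging and the leading strand, fell in their catalytic subunits, while the small subunits POLD4 and POLE4 did not fall. POLD1, the catalytic subunit of delta, was at 28.8, 28.8 and 23.6 FPKM in Scramble cells, compared with 10.8, 11.0 and 8.23 after Si-FIBP#1 transfection and 12.7, 12.5 and 13.2 after Si-FIBP#2, with log2 fold changes of -1.35 and -1.02. The fall with Si-FIBP#2 was under 2-fold without Scramble replicate 1 or Scramble replicate 2 (as small as -0.97). POLD2, an accessory subunit, was at 204, 186 and 180.1 FPKM in Scramble cells, compared with 135, 131 and 126 after Si-FIBP#1 transfection and 155, 141 and 160.3 after Si-FIBP#2, and all siRNA-treated samples were below Scramble (-0.54 and -0.32). POLD3, another, changed by -0.44 and -0.48. POLD4, the smallest subunit, was at 35.8, 31.5 and 25.9 FPKM in Scramble cells, compared with 38.2, 41.6 and 38.4 after Si-FIBP#1 transfection and 38.5, 37.2 and 40.2 after Si-FIBP#2. All 6 siRNA-treated samples were above the highest Scramble sample, and POLD4 rose by 0.34 ± 0.10 and 0.32 ± 0.10 (SE, adjusted p = 0.0184 and 0.0258, limma), the only rise that passed the test. The call with Si-FIBP#1 was lost without Si-FIBP#1 replicate 2 (0.30, adjusted p = 0.0653, limma). That with Si-FIBP#2 was lost without Scramble replicate 2 (0.33, adjusted p = 0.0512, limma), Scramble replicate 3 (0.20, adjusted p = 0.0682), Si-FIBP#2 replicate 1 (0.32, adjusted p = 0.0545) or Si-FIBP#2 replicate 3 (0.29, adjusted p = 0.0764), and after median ratio scaling (0.20, adjusted p = 0.111). Without Scramble replicate 3 the value with Si-FIBP#1 was 0.22. POLD4 shares 21.3% of its exon bases with another gene on the same strand.

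For polymerase epsilon, POLE, the catalytic subunit, changed by -0.84 and -0.75 with adjusted p of 0.000108 and 0.00022 (limma). POLE2, the subunit that holds the complex together, was at 13.1, 17.5 and 13.04 FPKM in Scramble cells, compared with 5.31, 5.72 and 7.7 after Si-FIBP#1 transfection and 6.68, 5.89 and 8.07 after Si-FIBP#2 and fell by 1.10 and 0.98 on the log2 scale. Without Scramble replicate 2, the highest of the POLE2 values, its fall with Si-FIBP#1 was -0.97. POLE3, a histone-fold subunit, fell slightly (-0.28 and -0.29). Its partner POLE4 was at 34.03, 35.5 and 38.6 FPKM in Scramble cells, compared with 37.6, 40.8 and 45.7 after Si-FIBP#1 transfection and 31.5, 40.3 and 39.2 after Si-FIBP#2, with overlapping groups and no call with either siRNA (0.19 and 0.030).

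PCNA, the sliding clamp, fell by more than 2-fold and its loader RFC fell less evenly. PCNA was at 180.4, 182 and 189 FPKM in Scramble cells, compared with 60.99, 72.01 and 69.6 after Si-FIBP#1 transfection and 82.2, 78.7 and 80.8 after Si-FIBP#2, with no overlap between groups and log2 fold changes of -1.44 ± 0.062 and -1.18 ± 0.062 (SE, adjusted p = 4.38e-07 and 1.28e-06, limma). RFC4, a small RFC subunit, was at 67.03, 59.9 and 63.7 FPKM in Scramble cells, compared with 24.04, 26.9 and 24.2 after Si-FIBP#1 transfection and 19.9, 21.4 and 24.9 after Si-FIBP#2. RFC3, another, was at 29.4, 31.5 and 28.9 FPKM in Scramble cells, compared with 12.3, 13.3 and 14.9 after Si-FIBP#1 transfection and 15.5, 14.2 and 13.1 after Si-FIBP#2. RFC1, the large subunit, was at 57.7, 55.4 and 57.3 FPKM in Scramble cells, compared with 47.03, 50.4 and 46.3 after Si-FIBP#1 transfection and 40.8, 49.5 and 51.8 after Si-FIBP#2. All siRNA-treated samples were below Scramble for the 3 genes, but the gap of RFC1 was narrow. Changes were -1.31 and -1.49 for RFC4, -1.09 and -1.02 for RFC3, -0.80 and -0.66 for RFC2, -0.83 and -0.77 for RFC5 and -0.24 and -0.26 for RFC1. The fall of RFC3 with Si-FIBP#2 was under 2-fold without Scramble replicate 2 or Si-FIBP#2 replicate 3 (as small as -0.97). The call of RFC1 with Si-FIBP#1 (adjusted p = 0.0372, limma) was lost without any 1 of the 3 Scramble samples, Si-FIBP#1 replicate 1 or Si-FIBP#1 replicate 3 (adjusted p = 0.0649 to 0.104, log2 -0.22 to -0.26). With Si-FIBP#2 the call (adjusted p = 0.025, limma) was lost without Scramble replicate 1 (-0.25, adjusted p = 0.0637), Scramble replicate 3 (-0.26, adjusted p = 0.0652) or Si-FIBP#2 replicate 1 (-0.16, adjusted p = 0.0512). The summed FPKM of the RFC genes was 57.0% and 57.6% of the Scramble mean, against 36.7% and 43.8% for PCNA. Such a sum is weighted to the most abundant RNAs, and the amount of the complex was not measured.

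Among genes that process Okazaki fragments, LIG1, RNASEH2A and FEN1 fell most. LIG1, the ligase that seals the fragments, was at 28.3, 21.7 and 25.1 FPKM in Scramble cells, compared with 10.6, 7.83 and 7.4 after Si-FIBP#1 transfection and 10.6, 9.75 and 11.7 after Si-FIBP#2. FEN1, the flap endonuclease, was at 55.2, 54.7 and 52.8 FPKM in Scramble cells, compared with 22.7, 22.98 and 25.6 after Si-FIBP#1 transfection and 28.1, 26.6 and 26.9 after Si-FIBP#2. RNASEH2A, the catalytic subunit of RNase H2, was at 61.5, 61.6 and 63.99 FPKM in Scramble cells, compared with 23.6, 22.6 and 26.01 after Si-FIBP#1 transfection and 32.4, 30.1 and 32.96 after Si-FIBP#2. No siRNA-treated sample of these 3 genes reached the Scramble range. The log2 fold changes were -1.44 and -1.15 for LIG1, -1.16 and -0.97 for FEN1, -1.34 and -0.95 for RNASEH2A and -0.79 and -0.94 for DNA2, a nuclease and helicase (adjusted p between 6.73e-07 and 0.00111, limma). RNASEH2B and RNASEH2C are the other subunits of RNase H2. RNASEH2C was at 18.6, 24.4 and 21.6 FPKM in Scramble cells, compared with 29.04, 25.3 and 22.6 after Si-FIBP#1 transfection and 23.3, 24.2 and 26.4 after Si-FIBP#2, the groups overlapped, and its changes of 0.24 and 0.19 did not pass the test, although without Scramble replicate 2 that with Si-FIBP#1 did (0.33, adjusted p = 0.0448, limma). RNASEH2B changed by -0.39 and -0.49, with adjusted p of 0.0477 and 0.0185 (limma). Its call with Si-FIBP#1 was lost without Scramble replicate 2 or 3, Si-FIBP#1 replicate 1 or 2 or Si-FIBP#2 replicate 1 (adjusted p = 0.0612 to 0.151, -0.24 without Si-FIBP#1 replicate 1), and that with Si-FIBP#2 without Scramble replicate 3 (-0.43, adjusted p = 0.0628) or Si-FIBP#2 replicate 2 (-0.39, adjusted p = 0.0641). RNASEH2A shares 30.8% of its exon bases with THSD8 on the same strand, and RNASEH2C shares 28.2% with KAT5 on the opposite strand.

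RPA, the trimer that coats single-stranded DNA, showed smaller changes than the helicase, and in the main fit 1 of its 3 genes was called lower with both siRNAs. RPA2 was at 75.2, 79.2 and 75.3 FPKM in Scramble cells, compared with 52.2, 52.6 and 58.4 after Si-FIBP#1 transfection and 56.8, 52.7 and 56.3 after Si-FIBP#2, with all siRNA-treated samples below Scramble and log2 fold changes of -0.49 and -0.46. RPA1, the large subunit, was at 42.4, 40.5 and 43.3 FPKM in Scramble cells, compared with 33.5, 34.3 and 37.7 after Si-FIBP#1 transfection and 40.5, 42.7 and 39.1 after Si-FIBP#2. It fell with Si-FIBP#1 (-0.25 ± 0.062, SE, adjusted p = 0.00769, limma), and the samples with Si-FIBP#2 overlapped Scramble (-0.045, adjusted p = 0.58). After median ratio scaling RPA1 was also called with Si-FIBP#2 (-0.16, adjusted p = 0.0499, limma). RPA3, the small subunit, fell with Si-FIBP#1 (-0.29, adjusted p = 0.012, limma) and was at -0.18 with Si-FIBP#2 (adjusted p = 0.0728), which passed the test without Si-FIBP#1 replicate 1 (adjusted p = 0.0306), with only the groups compared in the fit (adjusted p = 0.0390) and after median ratio scaling (-0.30, adjusted p = 0.0134). The summed level of RPA was 78.0% of Scramble for Si-FIBP#1 and 83.6% for Si-FIBP#2.

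All 4 genes of fork protection fell. CLSPN (claspin), which links the fork to checkpoint signalling, was at 14.8, 15.3 and 13.8 FPKM in Scramble cells, compared with 4.23, 4.2 and 5.26 after Si-FIBP#1 transfection and 5.21, 4.63 and 4.73 after Si-FIBP#2, and assembled transcripts carried 52.7% of its FPKM. TIMELESS, which forms a complex with TIPIN that steadies the fork, was at 34.7, 32.9 and 33.1 FPKM in Scramble cells, compared with 18.7, 19.7 and 19.2 after Si-FIBP#1 transfection and 22.8, 22.9 and 23.8 after Si-FIBP#2. Groups did not overlap with Scramble for either gene. The log2 fold changes were -1.50 and -1.42 for CLSPN, -0.77 and -0.52 for TIMELESS, -0.81 and -0.92 for TIPIN and -0.94 and -0.87 for WDHD1, which tethers polymerase alpha to the helicase (adjusted p between 2.59e-06 and 0.000414, limma). RPL9P25, a pseudogene of a ribosomal protein, covers 21.0% of the exon bases of TIPIN on the same strand.

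The siRNAs were also compared with each other. Si-FIBP#2 gave a higher level than Si-FIBP#1 for 12 of the 56 genes and a lower level for 1, against a background of 9.58% and 5.8% of all genes tested. After median ratio scaling the numbers were 7 and 2, and the background was 7.28% higher and 7.93% lower, so the balance of all genes between the siRNAs turned with the scaling. FIBP itself did not pass the test (0.13, adjusted p = 0.686, limma). Besides GINS1, the difference was 0.47 ± 0.042 (SE) for MCM7, 0.45 ± 0.096 for ORC1, 0.41 ± 0.075 for MCM10 and 0.39 ± 0.064 for RNASEH2A, with adjusted p of 0.00032, 0.013, 0.00705 and 0.00434 (limma). GMNN was the gene that was lower with Si-FIBP#2 (-0.59 ± 0.11, adjusted p = 0.00767, limma). These 5 genes and GINS1 kept their call in all alternatives tried. The remaining differences were 0.33 for CDC45, 0.31 for GINS2, 0.26 for TIMELESS, 0.25 for PCNA, 0.24 for ORC6, 0.22 for POLD2 and 0.21 for RPA1, with adjusted p from 0.0119 to 0.0498 (limma). Each of these 7 calls was lost without at least 1 library. Within MCM2-7, MCM7 was the only subunit whose difference passed the test, and the ratio of MCM7 to MCM5 was 6.40 ± 0.0688 (SD, n = 3) for Scramble, 5.72 ± 0.225 for Si-FIBP#1 and 7.43 ± 0.539 for Si-FIBP#2. For the other 43 genes no difference passed, and their estimates lay between -0.26 for PRIM2 and 0.47 for MCM8.

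The call was lost, with limma, for TIMELESS without Si-FIBP#2 replicate 3 (0.24, adjusted p = 0.0513), and for GINS2 without Si-FIBP#1 replicate 1 (0.26, adjusted p = 0.0604) or Si-FIBP#2 replicate 3 (0.31, adjusted p = 0.0560). PCNA lost it without Si-FIBP#1 replicate 1 (0.18, adjusted p = 0.0518), Si-FIBP#2 replicate 1 (0.24, adjusted p = 0.0702) or Si-FIBP#2 replicate 3 (0.25, adjusted p = 0.0728). Among the fits that left out a sample, ORC6 kept it only without Scramble replicate 1 or Si-FIBP#1 replicate 2, CDC45 only without Si-FIBP#1 replicate 3 or Si-FIBP#2 replicate 2, POLD2 only without Scramble replicate 1 or Si-FIBP#2 replicate 2, and RPA1 only without Si-FIBP#1 replicate 3. In the other leave-outs the adjusted p was 0.0535 to 0.104 for ORC6, 0.0531 to 0.137 for CDC45, 0.0528 to 0.1501 for POLD2 and 0.0669 to 0.147 for RPA1. Of the genes that did not pass in the comparison of the siRNAs, 4 passed under an alternative. CDC6 passed without Si-FIBP#2 replicate 2 (0.29, adjusted p = 0.0466, limma), and POLD1 with TPM scaling (0.38, adjusted p = 0.0428, limma). FEN1 passed without Si-FIBP#1 replicate 3 (0.24, adjusted p = 0.0299, limma), with TPM scaling and with a filter of 5 FPKM. ORC3 passed without Si-FIBP#2 replicate 2 (-0.22, adjusted p = 0.0485, limma), with annotated transcripts only, with a filter of 5 FPKM and after median ratio scaling.

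**Figure D4:**
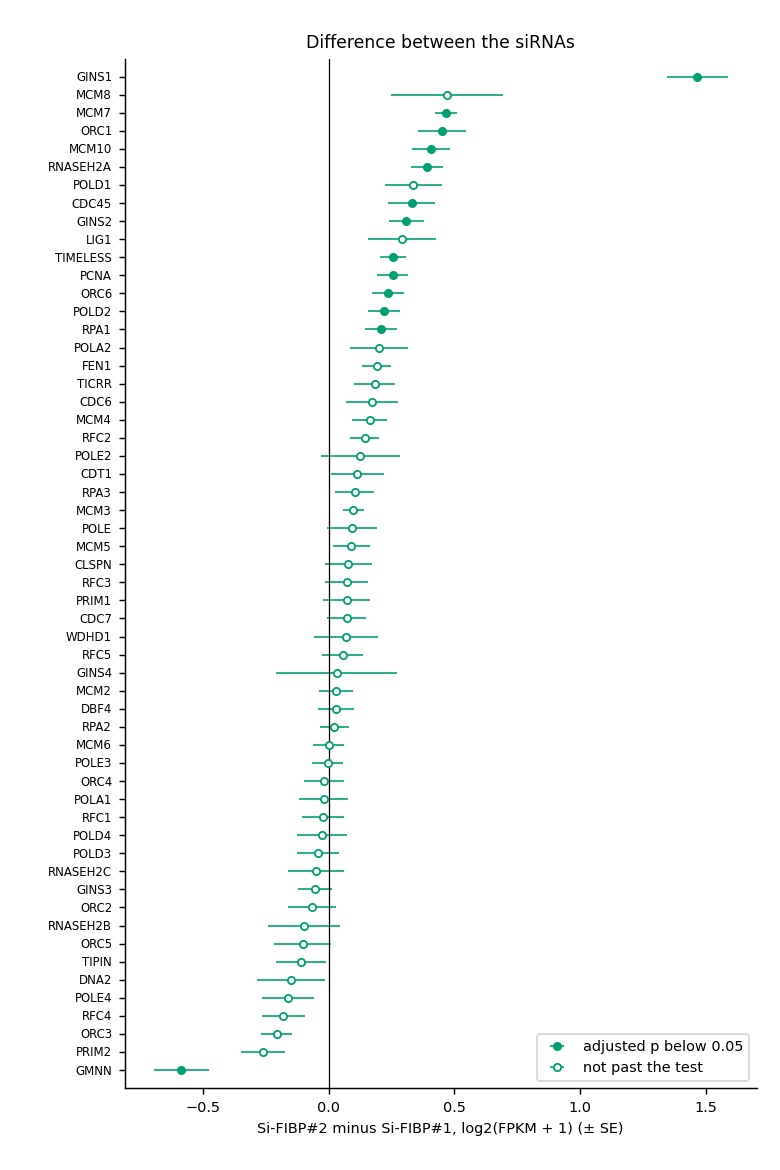
Points are the difference of Si-FIBP#2 minus Si-FIBP#1 in log2(FPKM + 1) for each of the 56 genes, with bars for the SE, ordered by size. Filled points passed an adjusted p below 0.05. GINS1 lies apart at 1.47 and GMNN is lowest at -0.59.

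Genes around the replication machinery were read from lists that were not part of the 56. The counts stand beside a background of 19.9% lower and 27.8% higher among all genes tested for Si-FIBP#1, and of 17.7% and 31.1% for Si-FIBP#2. Of 28 other replication factors, 21 fell and 2 rose with Si-FIBP#1, and 20 fell and 1 rose with Si-FIBP#2. CHTF18, a subunit of another clamp loader, had the largest mean fall over both siRNAs (-1.57 and -1.19), ATAD5, which unloads PCNA, changed by -0.92 and -0.67 beside a median of -0.69 and -0.68 over the list, and TOP1, the topoisomerase that relaxes DNA ahead of the fork, rose (0.32 and 0.52). All 9 genes of nucleotide supply fell with both siRNAs, RRM2, a subunit of ribonucleotide reductase, by the largest mean amount. Its values were 136, 131 and 131 FPKM in Scramble cells, compared with 27.9, 32.3 and 28.8 after Si-FIBP#1 transfection and 44.01, 29.8 and 36.8 after Si-FIBP#2. Of 12 regulators of the G1/S transition, 11 fell and 1 rose with each siRNA, where E2F2, an E2F activator, changed by -1.64 and -1.56 and RBL1, a pocket protein, by -0.79 and -0.74. The G1/S gene that rose was CCNE1, a cyclin that activates CDK2 (1.11 and 0.77). All 16 genes of G2 and mitosis fell with both siRNAs. Ordered by the mean over both siRNAs, they ran from MYBL2, a transcription factor of the late cell cycle (-1.90 and -1.52), to KIF11, a spindle motor (-1.08 and -0.93). With Si-FIBP#2 alone the smallest fall was that of BIRC5, an inhibitor of apoptosis that also acts in mitosis (-0.62). Over these 16 genes the median was -1.53 for Si-FIBP#1 and -1.12 for Si-FIBP#2, beside -0.94 and -0.91 for the 56 replication genes. Genes of G2 and mitosis moved in the same direction as the replication genes, and their part in the result was not tested.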

How the data were processed

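RNA-seq of H1299 cells gave 9 samples in 3 groups of 3, assigned from the sample labels. The authors deposited 1 table per sample with values per transcript, whose unit was read from the values as FPKM. The submitters' processing notes name HISAT2 and StringTie, and the genome build and annotation release are not given in the sources used here. No count was available, so no count test was run. FPKM were summed per gene over annotated and assembled transcripts. Genes that reached 1 FPKM in 3 or more samples were fitted with limma 3.58.1 (R 4.3.3) on log2(FPKM + 1) in 1 fit over the 9 samples with a mean-variance trend, and p-values were adjusted by Benjamini-Hochberg. The step was tested on simulated data.

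The 56 genes, the other lists and the motifs were chosen with earlier results of these data known. Values in every sample are given for genes called at more than 2-fold with either siRNA, for the extremes of each complex, for genes that differed between the siRNAs and for FIBP, and other lists name at most 3 genes each (the largest fall, the largest rise and the gene nearest the median, by the mean over both siRNAs), beside BIRC5 and CCNE2, which were chosen after their values were seen. Alternatives were TPM or median ratio scaling, 0.1 as pseudocount, testing with no filter or from 5 FPKM, fitting only the groups compared, annotated transcripts only, no trend, the replicate block and leaving out each sample. Exon overlaps come from GENCODE release 29 (GRCh38), which can differ from the authors' annotation. Promoters come from RefSeq (GRCh38.p14). Other steps used Python 3.11.15 with pandas 2.3.3, numpy 2.4.6 and matplotlib 3.10.9.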

Additional observations from a re-analysis of the deposited data

Results flagged for a closer look

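Among the replication genes, 13 responded differently to the siRNAs by the direct test of Si-FIBP#2 against Si-FIBP#1 (limma, adjusted p below 0.05), 12 higher and 1 lower, beside 9.58% higher and 5.8% lower of all 14985 genes tested. After median ratio scaling 7 were higher and 2 lower, where the background turned to 7.28% and 7.93%, and 7 of the 13 calls were lost when some single library was left out. The log2 difference was 1.47 for GINS1, 0.47 for MCM7, 0.45 for ORC1, 0.41 for MCM10, 0.39 for RNASEH2A, 0.33 for CDC45, 0.31 for GINS2. It was 0.26 for TIMELESS, 0.25 for PCNA, 0.24 for ORC6, 0.22 for POLD2 and 0.21 for RPA1, and -0.59 for GMNN. All but GMNN were higher with Si-FIBP#2. GINS1 was the only gene whose difference passed 2-fold. With 3 samples in each group, no test was made of a sample that stands apart from its group.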

How the results depend on the processing

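Lower calls among the 56 genes ranged over the 18 alternatives between 46 and 50 for Si-FIBP#1 and between 45 and 50 for Si-FIBP#2, and those of more than 2-fold between 24 and 30 and between 20 and 29. The higher calls against Scramble were few, and their counts moved by at most 1. With Si-FIBP#1 (1 call) the count was 2 with annotated transcripts only, 2 with the replicate block and 0 with no filter, and 0 to 2 when a sample was left out, with 2 without Scramble replicate 2 and 0 without Si-FIBP#1 replicate 2. With Si-FIBP#2 (1 call) it was 0 after median ratio scaling and with no filter, and 0 to 1 when a sample was left out, with 0 without Scramble replicate 2 or 3 or Si-FIBP#2 replicate 1 or 3. Between the siRNAs, the 12 higher calls became 14 with TPM scaling (where 1923 genes in all were higher and 648 lower), 13 with a filter of 5 FPKM, 7 after median ratio scaling, 6 with only the groups compared in the fit, and 5 to 11 when a sample was left out, with 6 without Si-FIBP#1 replicate 1, 7 without Si-FIBP#2 replicate 1 and 5 without Si-FIBP#2 replicate 3. The 1 lower call became 2 with annotated transcripts only, with a filter of 5 FPKM and after median ratio scaling, and 1 to 2 when a sample was left out, with 2 without Si-FIBP#2 replicate 2. The cause of these moves was not tested. With no filter, single calls were also lost for MCM8 with Si-FIBP#1 (adjusted p = 0.0787, limma) and, with each siRNA, for POLD4 (0.0513 and 0.0670), RFC1 (0.0844 and 0.0595) and RNASEH2B (0.124 and 0.0575). Without the mean-variance trend, RFC1 (0.0586) and RNASEH2B (0.0652) lost theirs with Si-FIBP#1, as did RNASEH2B with annotated transcripts only (0.0508). Differences between the siRNAs that other settings ended were limited to CDC45, GINS2, ORC6, PCNA, POLD2, RPA1 and TIMELESS. No log2 fold change of a called gene reversed its direction.

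Deviations of same-numbered samples from their group means correlated between -0.057 and 0.103, and those of differently numbered samples between -0.142 and 0.049. The labels do not say whether same-numbered samples were handled together, so an alternative fit used the replicate block. It left the lower calls at 49 with Si-FIBP#1, called POLE4 higher with Si-FIBP#1 (adjusted p = 0.0473, limma) and ORC2 lower with Si-FIBP#2 (adjusted p = 0.0408), and lost the difference of RPA1 (adjusted p = 0.0745). Without counts, the depth behind low values such as those of MCM8 and GINS1 is unknown, and fold changes of low genes are understated on the log2(FPKM + 1) scale.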

Other observations

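The E-type cyclins, which both activate CDK2 at the G1/S transition, went in opposite directions. This pair was chosen after its values were seen. CCNE1 was at 10.6, 11.3 and 11.6 FPKM in Scramble cells, compared with 24.6, 25.1 and 25.8 after Si-FIBP#1 transfection and 16.4, 25.2 and 18.4 after Si-FIBP#2. CCNE2 was at 14.1, 14.3 and 16.3 FPKM in Scramble cells, compared with 5.56, 6.26 and 6.75 after Si-FIBP#1 transfection and 6.08, 6.4 and 7.27 after Si-FIBP#2. All siRNA-treated samples were above Scramble for CCNE1 and below it for CCNE2, with log2 fold changes of 1.11 and 0.77 and of -1.14 and -1.07 (adjusted p between 1.42e-05 and 0.000896, limma). The ratio of CCNE1 to CCNE2 was 0.752 ± 0.0417 (SD, n = 3) for Scramble, 4.09 ± 0.313 for Si-FIBP#1 and 3.06 ± 0.771 for Si-FIBP#2.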
